A study of Mus musculus with 6 samples.

Results

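The nuclear-encoded subunits of the mitochondrial respiratory chain were followed in cells of mammary tumors from MMTV-PyVT mice, in libraries labelled either Nr4a1 knockout or wild type. Members were chosen by gene symbol: every listed gene whose name begins with Ndufa, Ndufb, Ndufc, Ndufs, Ndufv, Uqcr, Cox4 to Cox8 or Atp5, together with Sdha, Sdhb, Sdhc, Sdhd and Cyc1. This gave 86 of the 10995 rows of the count table. By their known roles, 78 of the 86 are subunits: 37 of complex I, 4 of complex II, 9 of complex III, 12 of complex IV and 16 of complex V. The other 8 carry a family name without being subunits. They are 7 assembly factors of complex I (Ndufaf1, Ndufaf2, Ndufaf3, Ndufaf4, Ndufaf5, Ndufaf7 and Ndufaf8) and Cox7a2l, a factor that joins complexes III and IV into supercomplexes. Ndufa4 and its paralog Ndufa4l2 were placed with complex IV, because Ndufa4 is now known as a subunit of that complex in spite of its name. Ndufb1-ps was counted as a subunit of complex I, although the gene annotation used here lists it as a noncoding RNA.

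Both groups carried the MMTV-PyVT transgene, in which a mammary tumor virus promoter drives the polyoma middle T oncogene in the mammary epithelium of FVB/NJ mice. The 3 libraries of the first group were labelled Nr4a1-/- and the 3 libraries of the other were labelled wild type for Nr4a1, with mice matched for age. The sources used here give neither the ages nor the disrupted part of the Nr4a1 allele, nor do they say that the libraries of a label came from separate animals. A p-value therefore reflects the spread among these 6 libraries only, and that spread may be technical. Messenger RNA was sequenced with paired reads of 150 bases, and expression is given in CPM, a count divided by its library size after TMM adjustment, so that libraries of different depth can be compared.

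The respiratory chain passes electrons from NADH and succinate to oxygen and stores the energy as a proton gradient across the inner mitochondrial membrane. Complex I oxidises NADH, complex II oxidises succinate, complex III passes the electrons to cytochrome c, complex IV reduces oxygen, and complex V, the ATP synthase, spends the gradient to make ATP. Most subunits are encoded in the nucleus and imported, while a small set that includes the proton-pumping core is encoded by mitochondrial DNA. The nuclear genes are scattered over the chromosomes, and NRF1, the ETS factor GABP, YY1 and the estrogen-related receptors are known regulators of many of them.

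Total counts per library lay between 19569173 and 24188875. Wild type replicate 1 stood apart at -51.3 on the first principal component (60.06% of the variance), where the other 5 libraries lay at -2.22 to 28.8. The Nr4a1 transcript goes against the labels: it had 25.1, 35.5 and 37.6 CPM in the libraries labelled knockout, against 34.5, 18.6 and 16.9 CPM in those labelled wild type (log2 fold change 0.49, SE 0.32, exact permutation p = 0.2 where the smallest possible p is 0.1). Without wild type replicate 1 its log2 fold change was 0.88, and all 3 libraries labelled knockout stood above the remaining wild type ones. The sources used here do not say whether a disrupted allele can still give such reads, so the groups are named by their labels throughout. Markers of mammary epithelium were present in every library, and most stromal markers had log2 fold changes above 0. The median log2 fold change was -0.50 over 11 listed mammary epithelial markers (0 of 11 above 0), 0.80 over 12 macrophage markers (11 above 0), 0.85 over 9 fibroblast markers (9 above 0) and 1.18 over 9 pericyte and smooth muscle markers (8 above 0). These medians were -0.539, 0.679, 0.591 and 0.922 without wild type replicate 1. The summed level of the 11 epithelial markers was 4349 to 5424 CPM in the libraries labelled knockout and 6873 to 7836 CPM in those labelled wild type. The corresponding sums were 1182 to 1347 CPM with the knockout label and 829 to 973 CPM with the wild type label for macrophage markers, and 4907 to 8957 CPM and 2276 to 5539 CPM for fibroblast markers. The sums for pericyte and smooth muscle markers were 953 to 2083 CPM with the knockout label and 344 to 1163 CPM with the wild type label. Of the endothelial, adipocyte and skeletal muscle lists 1 gene each was in the table, at log2 fold changes of 1.06, 4.005 and 1.17. The part of other cell types in the values below was not tested, and in bulk samples fewer cells of a type and less RNA per cell cannot be told apart.

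Most of the respiratory chain genes had small fold changes between the labels. None of the 86 passed an adjusted p of 0.05 (edgeR quasi-likelihood test, Benjamini-Hochberg over all rows), where 0% of the 10995 rows passed. The smallest adjusted p among them was 0.574. DESeq2 called 0.938% of rows and also 0 of the 86. At an unadjusted p under 0.05 there were 4 of 86 (4.65%), against 7.88% of all rows. All 4 stood higher with the knockout label, where 3.7% of all rows lay on the higher and 4.17% on the lower side. The 3 libraries of each label did not overlap for 10 of 86 genes (11.6%), a smaller share than the 17.4% of all rows. Of these 10, 7 stood higher with the knockout label (8.39% of all rows did) and 3 lower (9.05% of all rows). The log2 fold changes lay within 0.2 of 0 for 71 of 86 (82.6%, against 67.0% of all rows) and within 0.1 for 45 of 86 (52.3%, against 40.9%). The standard error of these fold changes had a median of 0.0978, below the 0.126 of all rows, and the median level was 57.2 CPM, above the 41.8 CPM of all rows.

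**Figure D1:**
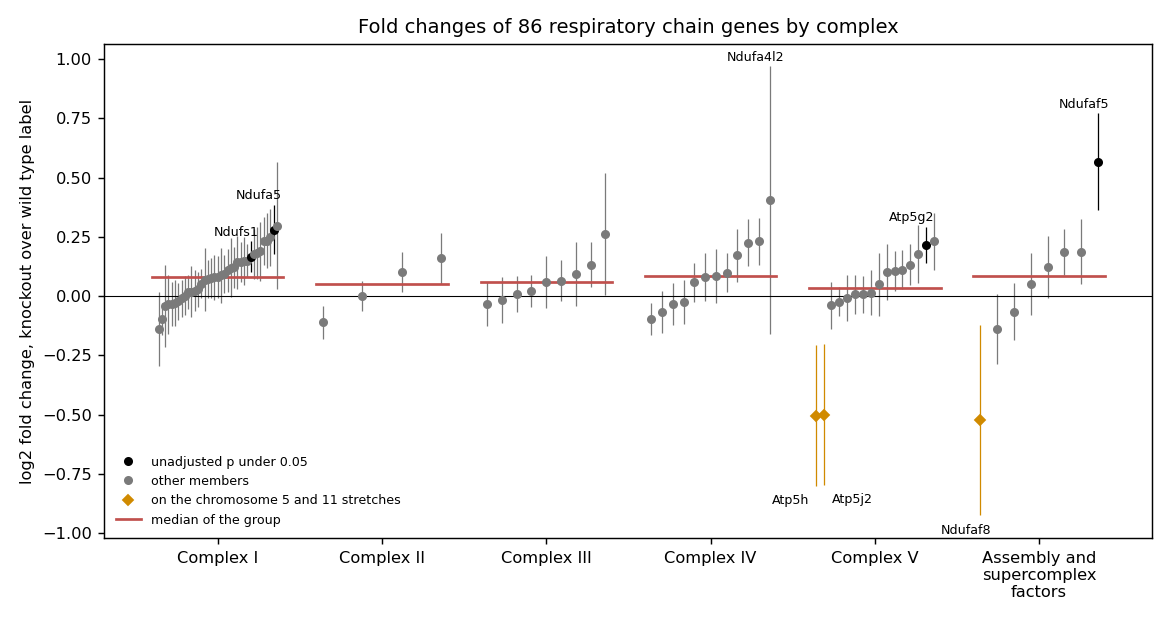
Log2 fold change (libraries labelled knockout over wild type) of each of the 86 genes, grouped by complex along the horizontal axis and ordered by value within it. Points are edgeR estimates from 3 against 3 libraries, vertical bars are 1 SE and red lines are group medians; most points lie within 0.2 of 0, and the 3 lowest are Ndufaf8, Atp5h and Atp5j2.

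The small differences leaned to the higher side. Of the 86 genes, 63 had a log2 fold change above 0 (73.3%, against 49.4% of all rows), and the median was 0.0784, against -0.00244 over all rows. The medians were 0.0813 for complex I (29 of 37 above 0), 0.0519 for complex II (3 of 4), 0.0595 for complex III (7 of 9), 0.0836 for complex IV (8 of 12) and 0.0327 for complex V (11 of 16). Without wild type replicate 1 the medians were 0.0499 over all 86, 0.0743 for complex I, 0.0247 for complex II, 0.0382 for complex III, 0.0433 for complex IV and 0.0183 for complex V. All these values come from the same 6 libraries, so the number of genes above 0 is not a number of independent observations. The mean log2 level over all 86 was 5.83, 5.93 and 5.96 in the libraries labelled knockout, against 5.84, 5.91 and 5.77 in those labelled wild type. The lowest was wild type replicate 3 and the highest knockout replicate 3, and the labels overlapped. Outside the 3 genes on the chromosome stretches described below, 37 of 83 genes were highest in knockout replicate 3 and 0 in wild type replicate 3, while 30 were lowest in wild type replicate 3 and 28 in wild type replicate 1. The share of all rows for these counts is not given here, so they are not read as a result about these genes. In wild type replicate 1, 7 of the 83 were highest, against 30.6% of 10623 genes outside the stretches. Without wild type replicate 3 the number above 0 was 56 of 86, and without wild type replicate 2 it was 69.

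Taken complex by complex, the libraries of the 2 labels overlapped in each. The mean log2 level of the 37 complex I subunits was 5.39, 5.49 and 5.52 in the libraries labelled knockout and 5.36, 5.45 and 5.33 in those labelled wild type, a difference of 0.0855 against a pooled SD of 0.068. Complex IV differed by 0.0944 with a pooled SD of 0.141. The differences were 0.0383 for complex II (pooled SD 0.0642), 0.0716 for complex III (0.107) and 0.0167 for complex V (0.0563). Among the 5 complexes, complex I alone differed by more than its pooled SD, and no test was made of these means. Together the 86 genes held 0.769%, 0.793% and 0.797% of all counts with the knockout label and 0.721%, 0.799% and 0.730% with the wild type label.

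**Figure D2:**
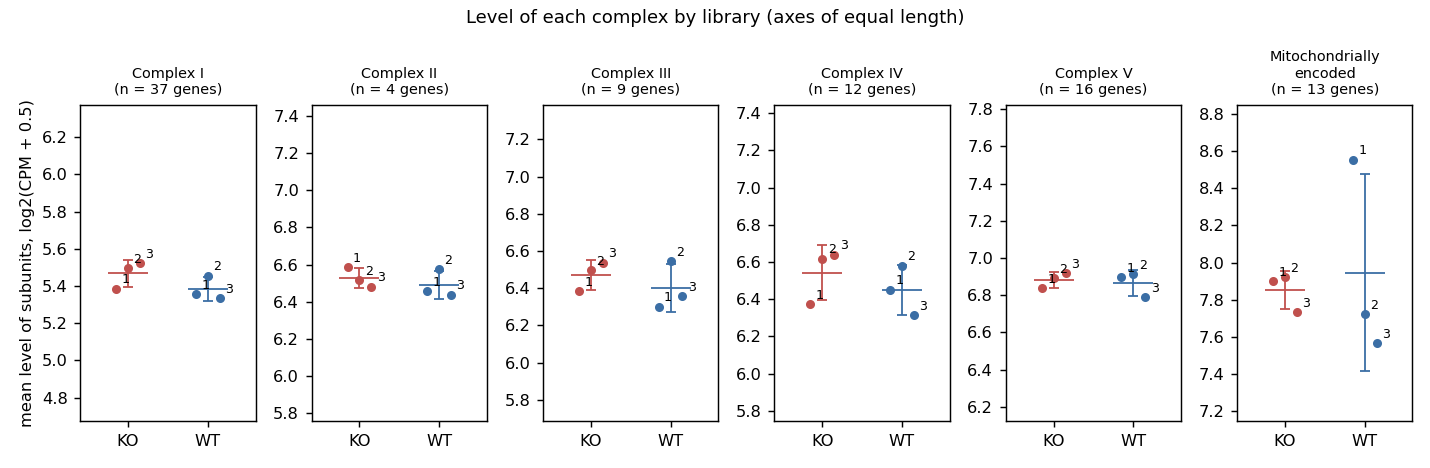
Mean level, log2(CPM + 0.5), over the nuclear-encoded subunits of each complex, and over the 13 mitochondrially encoded subunits, in each library, with the libraries labelled knockout to the left of those labelled wild type. Each numbered point is 1 library, horizontal lines are means of 3 and vertical bars are SD; the points of the 2 labels overlap in complexes I to V, and wild type replicate 1 is the highest for the mitochondrially encoded subunits, at 8.55.

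Complex I is the largest of the 5 and is built of a matrix arm, which takes electrons from NADH, and a membrane arm. All 7 nuclear-encoded core subunits, which carry the flavin and the iron-sulfur clusters, had values above 0, with a median log2 fold change of 0.142, and 22 of the 30 accessory subunits did, with a median of 0.0804. By position, the median was 0.131 in the matrix arm (13 of 16 above 0) and 0.0784 in the membrane arm (16 of 20 above 0). Without wild type replicate 1 the medians were 0.0764 for the core subunits, 0.056 for the accessory subunits, 0.0811 for the matrix arm and 0.0266 for the membrane arm.

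Ndufs1, the large core subunit that holds iron-sulfur clusters of the matrix arm, had 77.3, 79.95 and 78.0 CPM in the libraries labelled knockout, against 66.2, 70.5 and 73.0 CPM in those labelled wild type (log2 fold change 0.17, SE 0.07, unadjusted p = 0.0425). Each library labelled knockout was above each one labelled wild type, by a narrow margin. Ndufa5, an accessory subunit of the same arm, had 30.1, 31.8 and 34.7 CPM with the knockout label, against 24.7, 29.2 and 25.6 CPM with the wild type label (log2 fold change 0.28, SE 0.10, unadjusted p = 0.0344). Its labels did not overlap either, and its adjusted p was 0.574 like that of Ndufs1 (edgeR quasi-likelihood test, Benjamini-Hochberg). Ndufs3, a core subunit near the iron-sulfur chain, and Ndufb9, an accessory subunit of the membrane arm, also stood higher without overlap, at log2 fold changes of 0.15 and 0.18. Ndufab1, the acyl carrier protein found in both arms, stood lower without overlap, at 52.8, 56.4 and 55.6 CPM with the knockout label and 56.5, 61.0 and 58.5 CPM with the wild type label (log2 fold change -0.09, SE 0.07). For Ndufab1 the share of such words was 13.2%.

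Among the other core subunits, Ndufv1, which binds NADH and the flavin, lay at 0.05 (SE 0.06), and its partner Ndufv2 at 0.23 (SE 0.10). Ndufs7 and Ndufs8, which carry the last iron-sulfur clusters before ubiquinone, lay at 0.02 each. The core genes thus ranged from values near 0 to 0.23, each with overlap except Ndufs1 and Ndufs3.

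At the ends of the matrix arm, Ndufa12 had the highest and Ndufa6 the lowest fold change. Ndufa12 had 18.02, 27.0 and 38.2 CPM with the knockout label, against 21.2, 22.6 and 23.8 CPM with the wild type label. Its 3 libraries labelled knockout thus spanned those labelled wild type on both sides, and the log2 fold change of 0.30 (SE 0.27) lay between -0.0018 and 0.53 when each library was left out in turn. Ndufa6 had a mean of 45.5 CPM ± 4.12 with the knockout label and 46.6 CPM ± 6.44 with the wild type label (SD, n = 3 each), a log2 fold change of -0.03. In the membrane arm the highest was Ndufb3, with a mean of 39.2 CPM ± 5.34 with the knockout label and 32.9 CPM ± 2.01 with the wild type label (SD, n = 3 each; log2 fold change 0.25, SE 0.12). The lowest was Ndufb2, with 8.95 CPM ± 0.806 and 9.87 CPM ± 1.37 in the same order (log2 fold change -0.14, SE 0.16). Both arm-end genes overlapped between the labels.

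The 7 assembly factors of complex I, which are not part of the finished complex, held both extremes of the fold changes. Ndufaf5, known in human cells as the enzyme that hydroxylates an arginine of the core subunit NDUFS7, had 8.29, 6.88 and 5.45 CPM with the knockout label, against 4.26, 5 and 4.66 CPM with the wild type label. Its log2 fold change was 0.57 (SE 0.20, unadjusted p = 0.0305), the highest of the 86, and its labels did not overlap. Ndufaf4, an early assembly factor, had 20.3, 20.2 and 22.1 CPM with the knockout label, against 19.7, 17.6 and 17.7 CPM with the wild type label, also without overlap (log2 fold change 0.19, SE 0.10). Ndufaf8, which is known in human cells to act with NDUFAF5, had the lowest fold change, and its values follow with the chromosome stretches. The other factors lay between -0.14 (Ndufaf3) and 0.19 (Ndufaf1).

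Complex II, succinate dehydrogenase, is encoded wholly in the nucleus. Sdha, its flavoprotein, had 239, 208 and 213 CPM with the knockout label and 193, 212 and 211 CPM with the wild type label (log2 fold change 0.10, SE 0.08). Sdhb, its iron-sulfur subunit, had 64.3, 64.4 and 65.6 CPM and 71.6, 73.2 and 64.9 CPM in the same order (log2 fold change -0.11, SE 0.07). Sdhc and Sdhd, the membrane anchor, had means of 57.9 CPM ± 5.73 and 86.1 CPM ± 1.09 with the knockout label, and 51.8 CPM ± 4.72 and 86.1 CPM ± 4.06 with the wild type label (SD, n = 3 each). The 4 subunits thus lay on both sides of 0, and the labels overlapped for each.

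In complex III most subunits lay close to 0. Of the catalytic subunits, Cyc1, cytochrome c1, and Uqcrfs1, the Rieske iron-sulfur protein, stood at 0.01 (Cyc1, SE 0.08) and 0.02 (Uqcrfs1, SE 0.07) on the log2 fold change scale. The core protein Uqcrc1 was the lowest, at 128 CPM ± 6.46 with the knockout label and 131 CPM ± 13.2 with the wild type label (SD, n = 3 each; log2 fold change -0.03, SE 0.09). The other small subunits, Uqcr10, Uqcr11, Uqcrh and Uqcrq, lay between -0.02 (Uqcr11) and 0.13 (Uqcrq), and the core protein Uqcrc2 at 0.06. Uqcrb, a small subunit, was the highest, with 43.9, 55.2 and 60.0 CPM with the knockout label and 29.3, 56.6 and 46.6 CPM with the wild type label. Its low value in wild type replicate 1 set the difference: the log2 fold change was 0.26 (SE 0.26) over all libraries and 0.038 without that replicate. Of the 31-base words of the Uqcrb transcript, 30.5% also occur in other annotated genes, so its reads may be shared.

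Complex IV has subunits with tissue or stress isoforms, and the ubiquitous forms are described here. Cox4i1 (subunit 4) had 307, 314 and 309 CPM with the knockout label, against 336, 340 and 319 CPM with the wild type label. It stood lower without overlap, by a narrow margin (log2 fold change -0.10, SE 0.07), and 16.9% of its 31-base words also occur in its neighbour Emc8. Cox6a1, Cox6b1 and Cox7a2 had log2 fold changes of -0.07, 0.06 and 0.09, each within 1 SE of 0. The partners Cox4i2, Cox6a2, Cox6b2 and Cox7a1 were not analysed here. Ndufa4 had 117 CPM ± 10.9 with the knockout label and 119 CPM ± 7.23 with the wild type label (SD, n = 3 each). Its paralog Ndufa4l2, which is known to be induced by hypoxia, had 3.45, 9.10 and 9.23 CPM with the knockout label and 6.88, 7.34 and 2.21 CPM with the wild type label. Each label held a low library, and the log2 fold change of 0.40 had an SE of 0.56, the largest of the 86. Cox5a, Cox5b, Cox6c and Cox8a, the other listed subunits, lay between -0.03 (Cox5a) and 0.17 (Cox6c). Cox7b and Cox7c, also small subunits of the membrane part, had log2 fold changes of 0.23 each, with SEs of 0.10, and overlapped. Cox7a2l, the supercomplex factor, had a log2 fold change of -0.06 (SE 0.12).

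Complex V has an F1 head, which makes ATP, a rotor in the membrane, and a peripheral stalk that holds the head in place. The 5 subunits of the head had a median log2 fold change of 0.00767, and Atp5b, the catalytic beta subunit, had 1146, 1144 and 996 CPM with the knockout label and 919, 1111 and 1032 CPM with the wild type label. The rotor is a ring of identical c subunits, and the genes Atp5g1, Atp5g2 and Atp5g3 are known to encode the same mature protein behind different import sequences. Atp5g2 had 90.5, 97.0 and 101 CPM with the knockout label, against 81.8, 88.2 and 78.3 CPM with the wild type label (log2 fold change 0.22, SE 0.08, unadjusted p = 0.0298). Its labels did not overlap, and its adjusted p was 0.574 (edgeR quasi-likelihood test, Benjamini-Hochberg). Atp5g1 had 68.1, 62.3 and 71.5 CPM with the knockout label and 48.4, 63.6 and 59.8 CPM with the wild type label, with overlap (log2 fold change 0.23, SE 0.12). Atp5g3 lay at 0.02 (SE 0.10). Summed over the ring genes the level was 304, 315 and 335 CPM with the knockout label and 271, 323 and 285 CPM with the wild type label. The remaining stalk subunits Atp5f1, Atp5j and Atp5o lay at 0.13, 0.11 and 0.05, and the remaining small membrane subunits Atp5k, Atp5mpl and Atp5l at 0.18, -0.01 and -0.04, each with overlap. Of the 31-base words of Atp5g1 and Atp5g2, 14.8% and 19.6% also occur in other genes, pseudogenes among them.

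**Figure D3:**
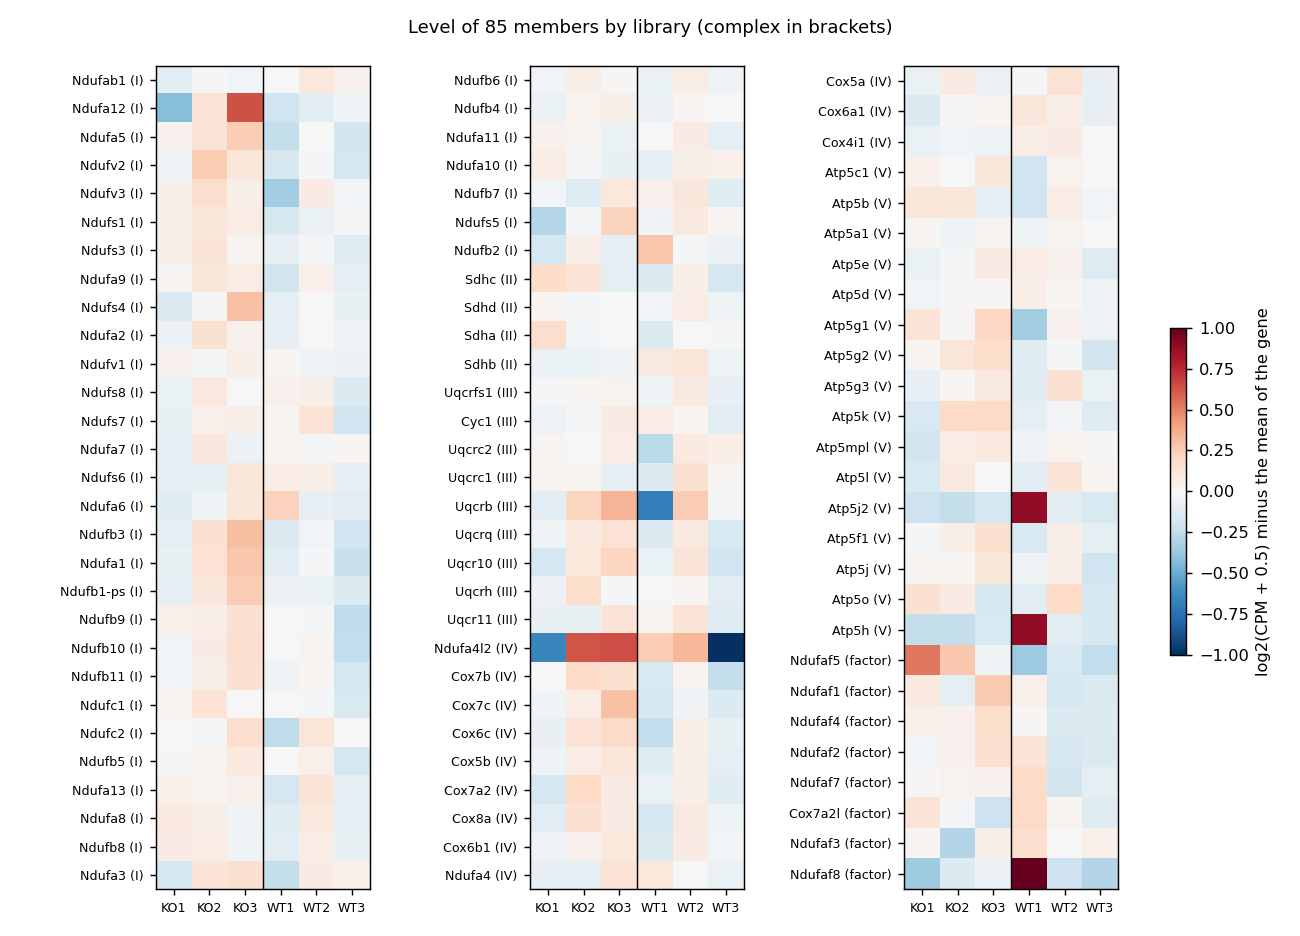
Level of each of 85 of the genes (rows, grouped by complex) in each library (columns, libraries labelled knockout to the left), as log2(CPM + 0.5) minus the gene's mean over the 6 libraries; colour is limited at 1 in either direction. Most cells are near 0, while Atp5h, Atp5j2 and Ndufaf8 are far above it in wild type replicate 1, and Ndufa4l2 varies in both labels.

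Of the 86 genes, 3 stood apart from the rest through 1 library. Atp5h, subunit d of the peripheral stalk, had 124, 124 and 132 CPM with the knockout label, against 272, 136 and 131 CPM with the wild type label. Atp5j2, the small membrane subunit f, had 86.5, 84.5 and 88.6 CPM with the knockout label, against 185, 92.1 and 89.8 CPM with the wild type label. Ndufaf8 had 9.73, 11.4 and 12.1 CPM with the knockout label, against 26.7, 10.9 and 10.2 CPM with the wild type label. In each case wild type replicate 1 was far above the other 5 libraries, which lay close together. On the log2 scale it was above their median by 1.05 for Atp5h, 1.06 for Atp5j2 and 1.26 for Ndufaf8. Atp5j2 stood lower without overlap, while the labels of Atp5h and Ndufaf8 overlapped. Over all libraries these genes had the lowest fold changes of the 86, at -0.50 (SE 0.30), -0.50 (SE 0.30) and -0.52 (SE 0.40). Without wild type replicate 1 the log2 fold changes were -0.0753, -0.0711 and 0.0712. Among the other 83 genes that replicate deviated from the median of the other 5 libraries by -0.90 (Uqcrb) to 0.34 (Ndufb2), with a median of -0.08.

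The 3 genes lie near the ends of 2 chromosomes. Atp5h and Atp5j2 are subunits of complex V, and Ndufaf8 is an assembly factor of complex I. Atp5h lies at chr11:115415689-115419962 (minus strand, GRCm38), Ndufaf8 at chr11:120098928-120100705 (plus strand) and Atp5j2 at chr5:145183698-145192062 (minus strand). When all rows were placed along the genome in bins of 5 Mb, the bins whose median in wild type replicate 1 lay more than 0.6 on the log2 scale above the other 5 libraries formed 2 runs that held these genes. The first run held 148 genes of chromosome 11 from 110269369 to 121716306, with a median of 1.14 (quartiles 0.847 and 1.33), and 135 of them (91.2%) were highest in wild type replicate 1. The second run held 153 genes of chromosome 5 from 135009152 to 151651242, with a median of 1.04 (quartiles 0.524 and 1.31), and 126 of them (82.4%) were highest there. Elsewhere 30.6% of 10623 genes were highest in that library, and the medians of 370 other bins lay between -0.544 and 0.393. No bin of the other 5 libraries passed the same limit.

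Members on the same chromosomes outside these runs did not share the shift. On chromosome 11, Uqcr10, Uqcrq and Atp5g1 deviated in wild type replicate 1 by -0.17, -0.22 and -0.39 on the log2 scale. On chromosome 5, Atp5k and Cox6a1 deviated by -0.07 and 0.10. Within the runs the median log2 fold change of all genes was -0.62 on chromosome 11 and -0.46 on chromosome 5, and without wild type replicate 1 it was -0.191 and -0.0449. The runs were found in these libraries and are a description, and their cause was not tested.

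**Figure D4:**
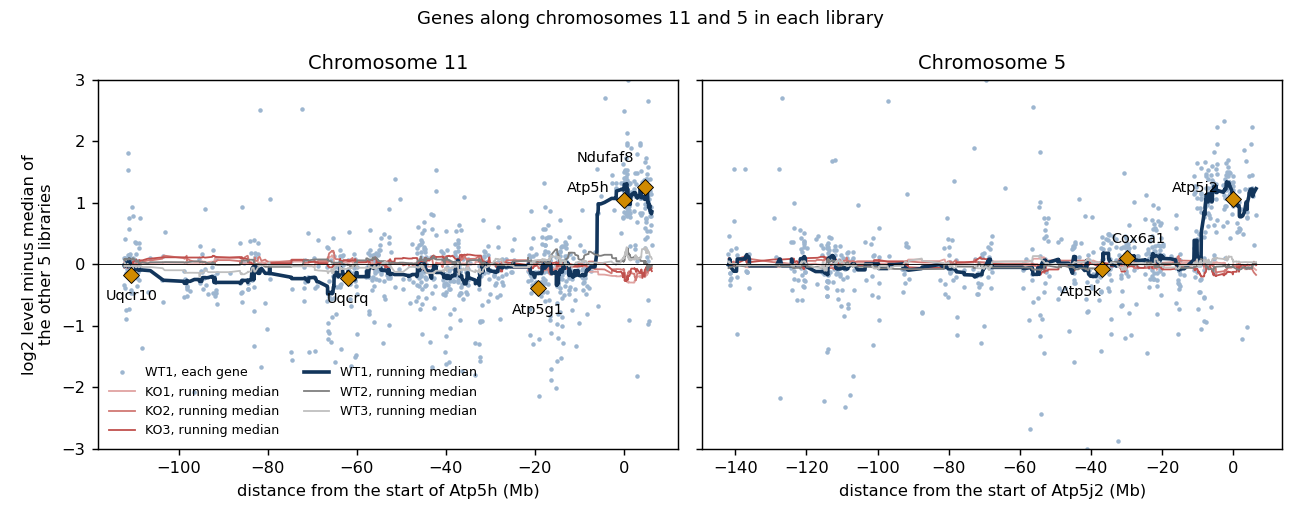
Log2 level in wild type replicate 1 minus the median of the other 5 libraries for each gene along chromosomes 11 and 5 (dots), with a running median for each library (lines, libraries labelled knockout first), against the distance in Mb from Atp5h or Atp5j2. Diamonds are respiratory chain genes; the line of wild type replicate 1 steps up to about the 1.14 and 1.04 medians of the end runs, and Atp5h, Ndufaf8 and Atp5j2 lie on these steps.

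The promoters of the genes on which these results turn are given next, from RefSeq on GRCm38.p6, as the stretch from 150 bases before to 30 bases from the transcription start, 5′ to 3′ on the gene's strand. Capitals mark matches, on either strand, to the NRF1 motif (GCGCA, then any base N, then GCGC), the ETS motif CCGGAAG or the YY1 motif ATGGCGG. Shown first are the 3 genes with an unadjusted p under 0.05 that have a promoter entry, at chr15:102671018-102671197 on the minus strand (Atp5g2), chr6:24527661-24527840 on the minus strand (Ndufa5) and chr2:140170496-140170675 on the plus strand (Ndufaf5).
Atp5g2: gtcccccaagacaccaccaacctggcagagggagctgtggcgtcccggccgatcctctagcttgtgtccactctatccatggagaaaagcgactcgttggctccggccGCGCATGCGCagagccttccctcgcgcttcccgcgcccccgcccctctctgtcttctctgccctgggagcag
Ndufa5: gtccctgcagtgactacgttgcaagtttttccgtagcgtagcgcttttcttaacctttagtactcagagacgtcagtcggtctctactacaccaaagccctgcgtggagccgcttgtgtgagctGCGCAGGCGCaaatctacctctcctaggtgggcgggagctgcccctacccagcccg
Ndufaf5: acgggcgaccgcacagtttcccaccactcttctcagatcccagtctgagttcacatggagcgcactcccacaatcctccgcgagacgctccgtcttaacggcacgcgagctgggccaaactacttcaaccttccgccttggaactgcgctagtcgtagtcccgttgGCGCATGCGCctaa
Each holds 1 NRF1 match, starting at position -42, -26 and 17 from the transcription start. The next is Sdha, at chr13:74350211-74350390 on the minus strand. It was picked by hand, and its level overlapped between the labels, like that of most members. It holds 3 NRF1 matches, at -98, -55 and -10.
Sdha: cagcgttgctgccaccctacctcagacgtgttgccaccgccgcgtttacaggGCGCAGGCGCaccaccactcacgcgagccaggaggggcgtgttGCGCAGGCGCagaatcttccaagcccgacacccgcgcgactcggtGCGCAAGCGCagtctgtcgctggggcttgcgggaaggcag
The log2 fold change of Sdha was 0.10, and whether the number of matches bears on the level was not tested. The last are the 3 genes of the chromosome runs, at chr11:115419890-115420069 on the minus strand (Atp5h), chr11:120098784-120098963 on the plus strand (Ndufaf8) and chr5:145191512-145191691 on the minus strand (Atp5j2).
Atp5h: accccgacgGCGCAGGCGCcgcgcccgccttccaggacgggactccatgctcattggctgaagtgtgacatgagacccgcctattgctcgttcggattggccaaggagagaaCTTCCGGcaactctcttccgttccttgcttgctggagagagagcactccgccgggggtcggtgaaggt
Ndufaf8: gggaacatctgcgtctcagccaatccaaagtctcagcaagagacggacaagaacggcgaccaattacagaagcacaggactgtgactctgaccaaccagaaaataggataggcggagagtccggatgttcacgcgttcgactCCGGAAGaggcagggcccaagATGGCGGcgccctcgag
Atp5j2: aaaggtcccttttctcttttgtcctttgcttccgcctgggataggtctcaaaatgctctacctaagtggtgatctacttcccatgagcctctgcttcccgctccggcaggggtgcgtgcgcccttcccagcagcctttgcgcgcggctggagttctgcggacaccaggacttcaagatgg
Atp5h holds an NRF1 match at -141 and an ETS match at -38, Ndufaf8 an ETS match at -8 and a YY1 match at 14, and Atp5j2 none of the 3 motifs. These 3 promoters therefore hold different sets of matches.

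Across the members, 72 of 86 had a promoter entry of 300 bases. The NRF1 motif matched 19 of the 72 (26.4%), against 12.1% of the other genes of the table and 4.6% of all such windows. The ETS motif matched 18 of 72, against 21.3% and 8.86%, and the YY1 motif 12 (16.7%), against 9.96% and 4.05%. The GC box GGGCGGGG matched 14 (19.4%, against 39.7% and 17.6%). By complex, NRF1 matches stood on 9 of 40 genes of complex I with its assembly factors, 2 of 3 of complex II, 1 of 5 of complex III, 1 of 10 of complex IV with Cox7a2l and 6 of 14 of complex V, while 10 of the 12 YY1 matches stood on complex I genes. Matches of NRF1, ETS and YY1 overlapped each other in 0 cases. Genes with a match had a median log2 fold change of 0.0186 for NRF1, 0.0155 for ETS, 0.0913 for YY1 and 0.0784 for the GC box, and those without a match 0.0796, 0.0839, 0.0676 and 0.0617 in the same order, so the motifs went in different directions. A match to these letters describes the window and is not a measured binding site.

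The complexes differed widely in the median abundance of their transcripts, and the labels little beside that. Single genes overlapped between the complexes. With the wild type label they ran from 18.05 to 102 CPM per kb in complex I and 55.7 to 291 in complex III. The ranges were 5.86 to 497 in complex IV and 65.0 to 533 in complex V. Per kilobase of transcript, complex IV had the highest median level, at 197 CPM per kb with the knockout label and 189 CPM per kb with the wild type label. Complex V had 156 and 149 CPM per kb, complex III 99.2 and 82.6, complex II 63.3 and 65.6, and complex I 44.3 and 43.1 (knockout label first in each pair), while assembly and supercomplex factors had 10.4 and 9.50. Both complex III medians were the values of Uqcrb. That gene had 54.8 CPM per kb in wild type replicate 1, against 105.9 and 87.2 in the other wild type libraries. The most abundant member per length was Atp5b, at 572 CPM per kb with the knockout label and 533 CPM per kb with the wild type label. In the other complexes it was Cox6a1 (474 and 497 CPM per kb), Uqcrq (318 and 291), Ndufa7 (101 and 102) and Sdha (76.0 and 70.7). For each of these the difference between the labels was small beside the spread between complexes.

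**Figure D5:**
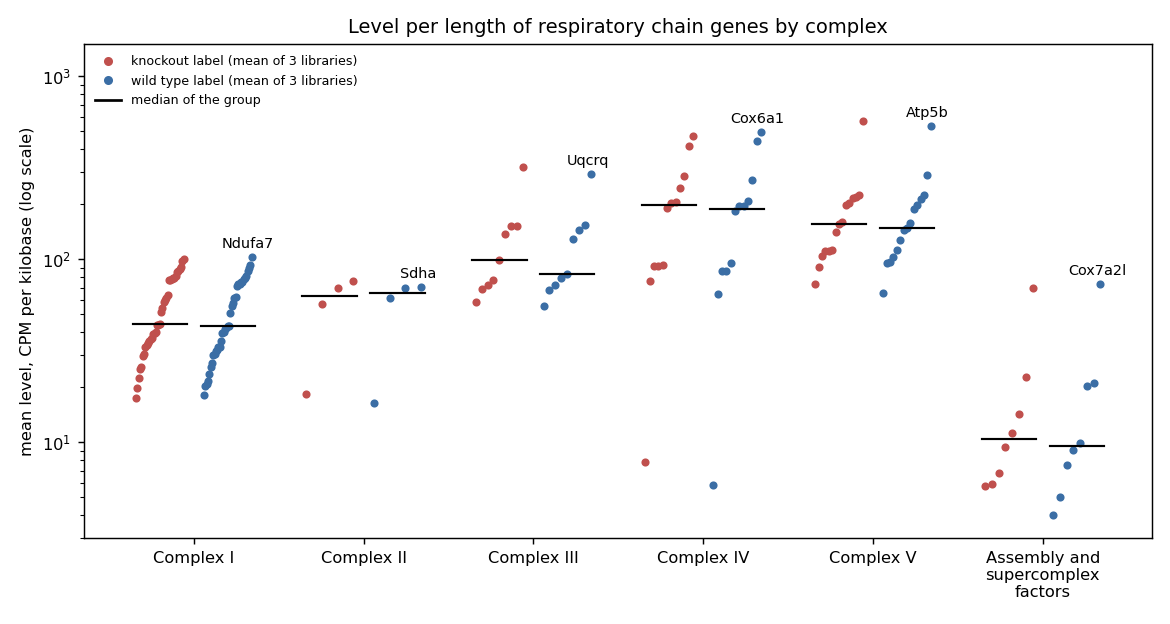
Level per transcript length (CPM per kb, log scale) of each gene by complex, with the mean of the 3 libraries labelled knockout to the left and of the 3 labelled wild type to the right. Points are genes and bars are medians. Complex IV has the highest median, at 197 and 189 CPM per kb, and the assembly and supercomplex factors have the lowest.

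Genes around the chain were read from lists of assembly factors, electron carriers and regulators, and 0 of them passed the adjusted threshold (edgeR quasi-likelihood test, Benjamini-Hochberg). Assembly factors outside the name rule lay close to 0. The median log2 fold change was 0.0315 for complex I factors (6 of 9 above 0), -0.0368 for complex II (1 of 2), 0.0294 for complex III (4 of 5), 0.0193 for complex IV (11 of 20) and -0.00964 for complex V factors with the ATP synthase inhibitor (2 of 4). Cox19, a complex IV factor on the chromosome 5 run, had 22.1, 22.05 and 21.7 CPM with the knockout label, against 51.2, 23.6 and 23.6 CPM with the wild type label, the same pattern as Atp5j2. Of 12 electron carrier genes 7 lay above 0 (median 0.0522). Coq3, a methyltransferase of ubiquinone synthesis, was the member of that list with an unadjusted p under 0.05. It had 21.97, 24.4 and 23.1 CPM with the knockout label, against 17.2, 20.04 and 18.8 CPM with the wild type label (log2 fold change 0.31, SE 0.10, unadjusted p = 0.022), without overlap. Mitochondrial membrane and matrix markers, a list with no respiratory subunits, had a median of 0.0062 over 13 genes, with 7 above 0.

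The listed regulators of respiratory genes were lower more often than higher, with 4 of 13 above 0, and their median log2 fold change was -0.122. Of the 13, 3 stood higher and 2 lower without overlap (38.5%, against 17.4% of all rows), and not all of these are named here. Esrra, the estrogen-related receptor alpha, had 62.5, 64.9 and 63.7 CPM with the knockout label, against 80.01, 71.7 and 77.4 CPM with the wild type label (log2 fold change -0.26, SE 0.07, unadjusted p = 0.00822). Hif1a, the hypoxia-inducible factor, had 155, 202 and 153 CPM with the knockout label, against 92.7, 129 and 134 CPM with the wild type label (log2 fold change 0.52, SE 0.18, unadjusted p = 0.0301). The labels did not overlap for either gene, and both had an adjusted p of 0.574 (edgeR quasi-likelihood test, Benjamini-Hochberg). Of the subunits of GABP, which binds the ETS motif, Gabpa stood higher without overlap, at 59.8, 61.0 and 59.9 CPM with the knockout label and 52.9, 54.2 and 57.0 CPM with the wild type label (log2 fold change 0.14, SE 0.06). Gabpb1 stood lower without overlap, at 37.0, 35.9 and 39.6 CPM with the knockout label and 41.1, 41.9 and 40.5 CPM with the wild type label. Gabpb2 was also among the listed genes and is not described here. Nrf1 and Yy1, whose motifs were also searched, overlapped between the labels, at log2 fold changes of -0.15 (Nrf1, SE 0.10) and -0.08 (Yy1, SE 0.07).

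The 13 mitochondrially encoded subunits, which join the nuclear ones in complexes I, III, IV and V, varied more between libraries. Their mean log2 level was 7.90, 7.92 and 7.73 in the libraries labelled knockout and 8.55, 7.72 and 7.57 in those labelled wild type. Wild type replicate 1 was the highest there, whereas it lay second lowest for complex I. They held 2.496%, 2.04% and 2.24% of all counts with the knockout label and 2.82%, 1.98% and 2.25% with the wild type label. Part of the spread in the mean came from genes with few counts or shared sequence. mt-Nd4l, 98.9% of whose words occur in other genes, had 11.1, 33.3 and 15.9 CPM with the knockout label and 63.7, 7.201 and 6.45 CPM with the wild type label. mt-Atp8 had 1.72, 2.14 and 0.555 CPM with the knockout label and 33.3, 17.3 and 1.79 CPM with the wild type label, and mt-Nd3, with 98.1% of its words shared, 3.24, 15.1 and 18.9 CPM and 3.29, 1.83 and 2.49 CPM in the same order. DESeq2 called mt-Atp8 (log2 fold change -3.56, adjusted p = 0.0151) and mt-Nd3 (2.29, adjusted p = 0.0366) in opposite directions, whereas edgeR's quasi-likelihood test with Benjamini-Hochberg adjustment called neither (adjusted p = 0.574 for both). For both genes the labels overlapped.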

How the data were processed

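RNA from MMTV-PyVT mammary tumor cells was measured in 3 libraries labelled Nr4a1 knockout and 3 labelled wild type. The authors deposited 1 table of raw counts per gene symbol. Tools named in the submitters' processing notes are CASAVA 1.8, HISAT2 and featureCounts, on GRCm38 (mm10). The sources used here do not give the annotation, or the rules for strand, multiple alignments and removal of low rows. The lowest row maximum was 133 counts. Genes that are not in the table were not analysed here.

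Counts were fitted over all 10995 rows with edgeR 4.0.16 in R 4.3.3 (filterByExpr, which removed 0 rows, TMM, robust quasi-likelihood fit, F test, group as the only term), with Benjamini-Hochberg adjustment at 0.05. Log2 fold changes are knockout label over wild type label. SE was taken from the fold change and its F value. An exact two-sided permutation test was used for Nr4a1. DESeq2 1.42.0 and limma-voom 3.58.1 were alternatives. The fits were checked on simulated counts. Library means of log2 used CPM + 0.5. Symbols were matched to GENCODE M21 of GRCm38 (85 of 86 members matched 1 gene; Atp5o matched overlapping genes and has no position or level per length). Level per length used the APPRIS principal transcript. Sequence sharing was counted in words of 31 bases: 31 of 85 members shared at least 10% and 24 shared 0, and reads of the sharing members may be split between genes. Promoters came from RefSeq, with 2 members matched by synonym.

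Members, lists, tests and alternatives were chosen with earlier results of these data known. Members are named with values where the unadjusted p was under 0.05, where they were highest or lowest in fold change or highest per length in a complex, as subunits of complex II, or as isoform partners. All other genes given with values, Atp5j2 and Cox19 among them, were chosen after their values were seen.

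The sources used here do not say that replicate numbers pair the libraries, which were fitted as unpaired. No pair of libraries was as close as counting noise (smallest chi-square per degree of freedom 23.31). The values of 1 member are counted in the summaries but not reported here.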

Additional observations from a re-analysis of the deposited data

How the results depend on the processing

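Of 1114 values of single genes under the alternatives, 0 passed the threshold. The sign differed from the reported one in 69, of which 62 were fits with 1 library left out (7 to 12 of 86 genes in each). In 3 of the 69 the reported value was beyond 0.1: Ndufa12 (-0.00181) and Ndufs4 (-0.00785) without knockout replicate 3, and Ndufaf8 (0.0712) without wild type replicate 1. The number of respiratory chain genes called stayed 0 under each alternative, the unscaled fit and a threshold of 0.1 included. Over all rows DESeq2 called 103 rows, against 0 in edgeR, and leaving out 1 library gave 0 to 2. The number at an unadjusted p under 0.05 was 4. Leaving out 1 library gave 0 to 10 of 86, namely 10 when knockout replicate 1 was left out, 0 for knockout replicate 2, and 1 for knockout replicate 3 and for wild type replicates 1 and 3. The number whose labels did not overlap was 10, and leaving out 1 library gave 14 to 31, which has fewer libraries to separate. For both counts the share of all rows with 1 library left out is not given here. Neither range is therefore read as a result about these genes. The median of complex V was 0.0327, ranged from 0.00728 to 0.13 with 1 library left out and was 0.13 without wild type replicate 2. It was 0.0757 without the genes of the chromosome stretches, an alternative chosen after seeing the data. With 1 library left out the medians ranged from 0.0552 to 0.131 for complex I, 0.0162 to 0.0827 for complex II, 0.0115 to 0.0919 for complex III and 0.0384 to 0.148 for complex IV, and they stayed above 0 in the other alternatives too. With library size alone 6 of 86 genes changed sign, 69 lay above 0, and the median of all rows was 0.0212.

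Same-numbered libraries had correlations of -0.112, 0.348 and -0.255 in their deviations. With so few libraries, 1 of which stands apart, these values cannot decide whether the numbers pair them. With the replicate block, 1 of 86 genes had an unadjusted p under 0.05 and 0 rows passed. The block, DESeq2 and limma-voom give no value for the count without overlap.

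With 3 libraries a label and 1 that stands apart, differences the size of most of these could not be told from the spread between libraries. Nothing here shows that the genes were equal. Members under about 10 CPM, such as Ndufaf5 and Ndufa4l2, rest on fewer counts than the others.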
